A study of Mus musculus with 6 samples.

Results

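Complement is a set of plasma and cell-surface proteins, and 9 mouse genes of it were followed here in infarct tissue: C1qa, C1qb, C1qc, C3, C4b, Cfb, C3ar1, C5ar1 and Serping1. They were picked by name as components and receptors of the system. The rule uses no measured value, but the genes were chosen with earlier results of these data known. The 9 are part of the 36047 genes to which the transcripts of the files were joined. All 9 passed the filter on low counts that left 20094 genes for testing. The tissue was the infarct area of the heart of C57BL6 mice, labelled as 12 weeks old, taken 48 h after ischemia/reperfusion (I/R), in which a coronary artery is tied off for a time and then reopened. In 3 animals the Porcupine inhibitor LGK974 (LGK-974) was given by mouth from the end of surgery onwards, and 3 animals received the DMSO vehicle. Porcupine attaches the lipid that Wnt proteins need to leave the cell. Every animal had the injury, so no uninjured heart is part of the comparison. The replicates are separate animals, and the infarct area holds heart muscle, fibroblasts, vessels and infiltrating leukocytes together.

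The classical route of complement starts with C1q, a protein built of A, B and C chains that binds antibodies, dying cells and other ligands and is made largely by macrophages. C4 and C2 then form an enzyme that cleaves C3, the protein on which all routes meet, and factor B, encoded by Cfb, forms the corresponding enzyme of the alternative route. Cleavage of C3 and C5 releases small peptides that are sensed by the receptors C3ar1 and C5ar1 on myeloid cells, and C1 inhibitor, encoded by Serping1, blocks the proteases of C1. After myocardial ischemia, complement is known to be deposited on injured muscle and to attract leukocytes.

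Both peptide receptors, the C1q chains C1qa and C1qb and, by a smaller margin, C4b had higher levels in every LGK-974 library than in any DMSO library, C1qc, C3 and Cfb had higher means with overlapping groups, and the regulator Serping1 was nearly level. The largest differences were those of C5ar1, at 2.08-fold, and C3ar1, at 1.92-fold. With the quasi-likelihood test of edgeR and p-values adjusted by the Benjamini-Hochberg method, 0 of the 9 genes passed an adjusted p of 0.05, as did 0 of all 20094 genes (0.0%), while 4 of the 9 (C1qa, C1qb, C3ar1 and C5ar1) had an unadjusted p under 0.05, all of them higher with LGK-974. Over all tested genes 6.26% had such a p and were higher, and 7.18% had such a p and were lower. All 3 LGK-974 libraries lay above all 3 DMSO libraries for 5 of the 9 genes, against 10.7% of all tested genes, and below them for 0 of the 9, against 7.27%. Which of the 9 genes separated depended on how the libraries were scaled, as given below for C1qa, C1qb and C3. With DESeq2, 2 of the 9 genes passed the adjusted threshold, C3ar1 and C5ar1, whereas 1.97% of the 14632 genes to which it gave an adjusted p did so in that direction. An exact permutation test on 3 against 3 animals cannot give a two-sided p under 0.1, so no such test was used for single genes. Fold changes were positive on the log2 scale for 9 of 9 genes with a median of 0.66, beside a median of −0.13 over all tested genes.

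The libraries held between 41579787 and 80398211 estimated counts, of which 28.2% to 53.7% came from the mitochondrial genome. DMSO replicate 1 stood apart from the rest. Its log2 CPM (CPM, the count scaled to a library size corrected with TMM factors) correlated with the other 5 libraries at 0.841 to 0.925 across genes, while those 5 correlated among themselves at 0.923 to 0.966. Background was read from 1780 smell, pheromone and bitter taste receptor genes, which were taken as largely silent in heart tissue. In DMSO replicate 1, 98.9% of them had counts, at a median of 31.5 per kb, compared with 0.882 to 10.5 per kb in the other libraries. Each member is therefore given also without this library, and the share of its counts that this background level would make up is stated where it is large. Without DMSO replicate 1, 4 of the 9 genes again had an unadjusted p under 0.05 and 5 of the 9 had groups that did not overlap. In that fit 2041 of all 18547 tested genes had such a p in either direction. The share of all genes without overlap is not given for it, and groups of fewer libraries separate more easily.

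**Figure D1:**
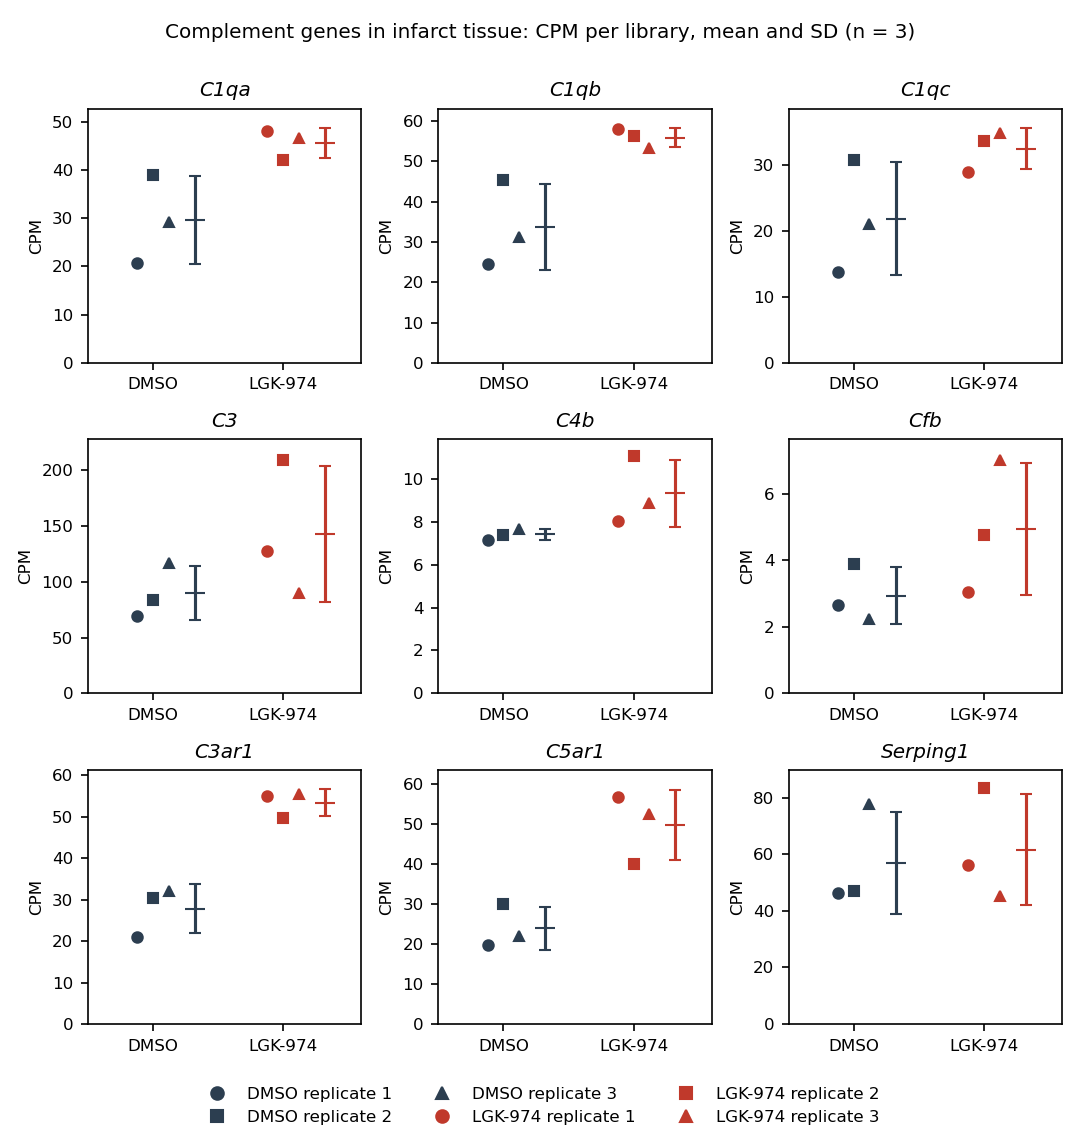
CPM of the 9 complement genes in each library, with the y axis starting at 0 in every panel; circles, squares and triangles are replicates 1, 2 and 3, and the bar beside them is the mean with the SD (n = 3). For C1qa, C1qb, C4b, C3ar1 and C5ar1 every LGK-974 library lies above every DMSO library, and for Serping1 the means of 61.5 and 56.9 CPM lie within the spread of either group.

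The 2 receptors showed the clearest separation. C3ar1 encodes the receptor for the peptide C3a, and is annotated as protein-coding, like the other 8 genes, on chromosome 6 (GRCm38; 122847138 to 122856161, minus strand). It was measured at 54.9, 49.7 and 55.6 CPM in LGK-974 replicates 1, 2 and 3 and at 21.1, 30.4 and 32.03 CPM in DMSO replicates 1, 2 and 3. On this scale the lowest LGK-974 library was thus well above the highest DMSO library, and the LGK-974 libraries differed little from one another. The means were 53.4 ± 3.20 and 27.8 ± 5.92 CPM (SD, n = 3), a log2 fold change of 0.94 (standard error 0.191, edgeR adjusted p = 0.368). DESeq2 gave the same gene an adjusted p of 0.00537. Leaving out DMSO replicate 1, in which the background level would make up 16.2% of its counts, gave a log2 fold change of 0.79.

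C5ar1, the receptor for the peptide C5a and a strong attractant receptor of neutrophils and monocytes, lies on chromosome 7 from 16246743 to 16259540 on the minus strand. Its levels were 56.9, 40.1 and 52.6 CPM with LGK-974 and 19.7, 30.0 and 22.1 CPM with DMSO. LGK-974 replicate 2 was the lowest of its group and still exceeded all DMSO libraries. The means were 49.8 ± 8.74 and 23.9 ± 5.36 CPM (SD, n = 3), a log2 fold change of 1.06 (standard error 0.215, edgeR adjusted p = 0.368). DESeq2's adjusted p was 0.00414, and the log2 fold change without DMSO replicate 1 was 0.96. The background level would make up 10% of its counts in that library. Per transcript length C5ar1 was the more abundant of the 2 receptors in 6 of 6 libraries, with a C3ar1 to C5ar1 ratio of TPM (a measure that is also scaled to transcript length) between 0.538 and 0.808. That ratio overlapped between the groups, at 0.607 ± 0.0779 under LGK-974 and 0.655 ± 0.133 in the controls (SD, n = 3).

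C3ar1 has 1 transcript in the files and C5ar1 has 3. Of the latter, C5ar1-201 held 75.8% to 100% of the counts and was higher in every LGK-974 library, by 0.92 on the log2 scale (standard error 0.263, adjusted p = 0.849 in an edgeR fit over 59297 transcripts). C5ar1-202 was listed at 0 in DMSO replicates 1 and 2 and held 18.2% of the gene's counts in DMSO replicate 3 and 11.1% to 24.2% in the LGK-974 libraries. These shares are estimates, since Kallisto divides reads that match several transcripts.

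The sequences before the RefSeq starts of both receptor genes are shown because the receptors moved together across the libraries. Each is the stretch of 250 bases before the gene's start in RefSeq for GRCm38.p6, written 5′ to 3′ on the gene's own strand, which is the minus strand for both, at chr6:122856158-122856407 for C3ar1 and chr7:16259339-16259588 for C5ar1. Capitals mark a match to 1 of 7 motifs that were searched on both strands from 250 bases before to 50 bases after the start.
C3ar1: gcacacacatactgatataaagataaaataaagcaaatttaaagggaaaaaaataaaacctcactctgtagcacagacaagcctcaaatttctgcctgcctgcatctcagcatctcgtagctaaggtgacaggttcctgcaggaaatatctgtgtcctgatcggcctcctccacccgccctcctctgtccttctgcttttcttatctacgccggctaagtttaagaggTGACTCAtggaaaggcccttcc
C5ar1: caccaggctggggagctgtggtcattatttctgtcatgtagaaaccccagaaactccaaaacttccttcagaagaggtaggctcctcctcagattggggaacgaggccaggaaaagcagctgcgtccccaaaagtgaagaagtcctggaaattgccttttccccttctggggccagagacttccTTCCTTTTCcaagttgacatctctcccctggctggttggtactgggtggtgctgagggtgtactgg
In C3ar1 the capitals are TGACTCA, the AP-1 motif, beginning at position −22 from the start, and this motif was held by 5.2% of 32851 promoters of the same length. In C5ar1 they are a match on the opposite strand to GAAANNGAA, an interferon response type motif, at position −66, held by 8.56% of promoters. The RefSeq start of C5ar1 differs from the gene span given above, which reaches 16259540. Most of the C5ar1 window, with the marked motif, lies inside that span. The other motifs searched, which were GAGGAAG (PU.1), GGACTTTCC and GGAATTTCC (NF-kB), TTCNNNGAA (STAT) and TGACGTCA (CRE), had no match in these windows. A match of letters is a description and not a site of binding.

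The genes of the 3 C1q chains lie next to each other on chromosome 4 within 18675 bases, from 136880129 to 136898803, all on the minus strand. C1qa, the A chain (136895917 to 136898803), was at 48.0, 42.01 and 46.7 CPM in LGK-974 replicates 1, 2 and 3 and at 20.6, 38.9 and 29.1 CPM in DMSO replicates 1, 2 and 3. All LGK-974 libraries lay above all DMSO libraries in CPM, though DMSO replicate 2 came close. In TPM the C1qa groups overlapped, with LGK-974 replicate 2 at 35.1 and DMSO replicate 2 at 42.1. The means were 45.6 ± 3.17 and 29.5 ± 9.11 CPM (SD, n = 3), a log2 fold change of 0.63 (standard error 0.232, edgeR adjusted p = 0.368). C1qb, the B chain (136880129 to 136886187), was at 58.0, 56.3 and 53.3 CPM with LGK-974 and at 24.6, 45.5 and 31.2 CPM with DMSO. Its groups also did not overlap in CPM, and DMSO replicate 2 was again the highest of the controls. In TPM the C1qb groups overlapped, with LGK-974 replicate 2 at 44.5 and DMSO replicate 2 at 46.5. For C1qb this was a log2 fold change of 0.73 (standard error 0.231, edgeR adjusted p = 0.368).

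C1qc, the C chain (136889804 to 136893065), was at 28.9, 33.7 and 34.8 CPM with LGK-974 and at 13.7, 30.8 and 21.1 CPM with DMSO. Here LGK-974 replicate 1 fell below DMSO replicate 2, so the groups overlapped. The log2 fold change of C1qc was 0.57 (standard error 0.276, edgeR adjusted p = 0.374). Adjusted p-values from DESeq2 were 0.152 for C1qa, 0.0889 for C1qb and 0.27 for C1qc. Without DMSO replicate 1, the lowest library for all 3 chains, their log2 fold changes were 0.44, 0.57 and 0.34 in the order A, B, C, and without DMSO replicate 2 they were 0.86, 0.99 and 0.89. The size of the C1q difference thus depended on which control animals were counted, while its direction did not.

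The 3 chains kept close to fixed proportions. Their log2 CPM correlated at 0.942 to 0.98 over the 6 libraries, which share treatment groups and depth with one another. Per length, the C1qb to C1qa ratio of TPM ran from 1.01 to 1.27 and the C1qc to C1qa ratio from 0.506 to 0.675, with overlapping groups for both. The summed CPM of the chains was 135, 132 and 135 with LGK-974 and 58.9, 115 and 81.4 with DMSO. On this scale the LGK-974 libraries were almost equal in the sum, and the spread lay in the DMSO group. In TPM, which are not scaled with TMM factors, the LGK-974 libraries varied more. The SD of C1qa was 26.7 TPM with LGK-974 and 13.2 TPM with DMSO, and that of C1qb 25.5 and 14.3 TPM. TMM factors of LGK-974 replicates 1, 2 and 3 were 1.06, 0.816 and 1.4.

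The 250 bases before the RefSeq starts of C1qb and C1qc are shown since these genes stand side by side and varied together. The C1qc window overlaps the gene span given above, which reaches 136893065. They come from RefSeq (GRCm38.p6) and lie on the minus strand at chr4:136886201-136886450 for C1qb and chr4:136892915-136893164 for C1qc, with matches to the same 7 motifs in capitals.
C1qb: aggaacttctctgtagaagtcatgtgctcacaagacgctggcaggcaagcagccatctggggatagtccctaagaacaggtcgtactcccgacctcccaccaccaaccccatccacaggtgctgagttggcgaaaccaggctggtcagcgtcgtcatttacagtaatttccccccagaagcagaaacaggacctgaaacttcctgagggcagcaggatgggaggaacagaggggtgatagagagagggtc
C1qc: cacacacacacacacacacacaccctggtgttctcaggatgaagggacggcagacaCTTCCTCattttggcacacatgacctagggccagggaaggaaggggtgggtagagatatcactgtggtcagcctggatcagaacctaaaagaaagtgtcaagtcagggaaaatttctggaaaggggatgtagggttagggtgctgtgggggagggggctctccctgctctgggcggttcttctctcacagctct
The capitals in C1qc are the opposite strand of GAGGAAG, the core of sites for the macrophage factor PU.1, at position −194, and 13.63% of all promoters held it. The C1qb window had no match to any of the 7 motifs, and neither had that of C3.

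C3, the central component, lies on chromosome 17 from 57203970 to 57228136 on the minus strand. It was at 128, 209.5 and 90.3 CPM with LGK-974 and at 69.6, 83.9 and 117 CPM with DMSO. LGK-974 replicate 2 was by far the highest, while LGK-974 replicate 3 was lower than DMSO replicate 3, so the groups overlapped in CPM. In TPM the C3 groups did not overlap, at 29.8 to 35.8 with LGK-974 and 12.4 to 25.1 with DMSO. The means were 142.6 ± 60.9 and 90.2 ± 24.4 CPM (SD, n = 3), a log2 fold change of 0.66 (standard error 0.334, edgeR adjusted p = 0.382). Without LGK-974 replicate 2 it was 0.33, without DMSO replicate 3 it was 1.0, and without DMSO replicate 1 it was 0.52. The full-length transcript C3-201 held 96.4% to 98.8% of the counts in all libraries.

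C4b encodes C4, which carries the classical and lectin routes on to C3, and lies on chromosome 17 from 34728380 to 34743882 on the minus strand. It was low, at 8.02, 11.1 and 8.86 CPM with LGK-974 and 7.16, 7.39 and 7.66 CPM with DMSO. The groups did not overlap, but LGK-974 replicate 1 exceeded DMSO replicate 3 by little. C4b had a log2 fold change of 0.33 (standard error 0.194, edgeR adjusted p = 0.425). In DMSO replicate 1 the background level would make up 36.1% of the C4b counts, and without that library the log2 fold change was 0.32. Of the 5718 stretches of 31 bases in C4b transcripts, 48.3% also occur in its neighbour C4a, which has no row among the genes analysed here, so reads of C4a may be counted within C4b.

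Cfb lies 112491 bases further along chromosome 17, from 34856374 to 34862518 on the minus strand. It was the lowest of the 9 genes in CPM, at 3.04, 4.76 and 7.02 with LGK-974 and 2.66, 3.89 and 2.24 with DMSO. LGK-974 replicate 3 was highest, and LGK-974 replicate 1 was below DMSO replicate 2. The log2 fold change was 0.75 (standard error 0.383, edgeR adjusted p = 0.383), and it was 0.47 without LGK-974 replicate 3 and 0.70 without DMSO replicate 1. The background level would make up 50% of its counts in DMSO replicate 1. The readthrough gene Gm20547 shares 2246 of the 2825 exonic bases of Cfb on the same strand, and had a count of 10 in DMSO replicate 1 and of 0 elsewhere. With Cfb, Gm20547 and the adjacent C2 summed, the log2 fold change dropped to 0.36. C2, the partner of C4 in the classical enzyme, was at 2.14 ± 0.484 CPM under LGK-974 and 2.51 ± 0.460 CPM in the controls (SD, n = 3), a log2 fold change of −0.23 (edgeR adjusted p = 0.752).

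The counts of Cfb were divided over up to 8 listed transcripts, of which Cfb-202 was higher in every LGK-974 library than in any DMSO library and Cfb-206 lower. Cfb-202 held 66.1% to 73.6% of them in the LGK-974 libraries, 12.9% in DMSO replicate 1 and next to none in the other 2 DMSO libraries. Cfb-206 held 33.6% to 54.7% in the DMSO libraries and 0% to 18% in the LGK-974 libraries. Estimated counts behind these shares were few, at most 324.4 for Cfb-202 and 63.2 for Cfb-206, and the adjusted p-values of the edgeR fit over transcripts were 0.849 and 0.883.

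Serping1 encodes the C1 inhibitor, the only soluble regulator among the 9 genes, and lies on chromosome 2 from 84765387 to 84775444 on the minus strand. It was at 56.1, 83.3 and 45.3 CPM with LGK-974 and 46.2, 46.9 and 77.7 CPM with DMSO. Each group had 1 high library, LGK-974 replicate 2 and DMSO replicate 3, and the ranges overlapped almost wholly. Its log2 fold change was 0.11 (standard error 0.293, edgeR adjusted p = 0.864), smaller than the spread between animals. Its sign turned to −0.12 without LGK-974 replicate 2, to −0.02 without DMSO replicate 2 and to −0.01 without DMSO replicate 1, so no direction can be given. Its main transcript Serping1-201 held 71.7% to 76.5% of the counts and Serping1-203 held 23.2% to 27.8%, with overlapping groups for both.

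**Figure D2:**
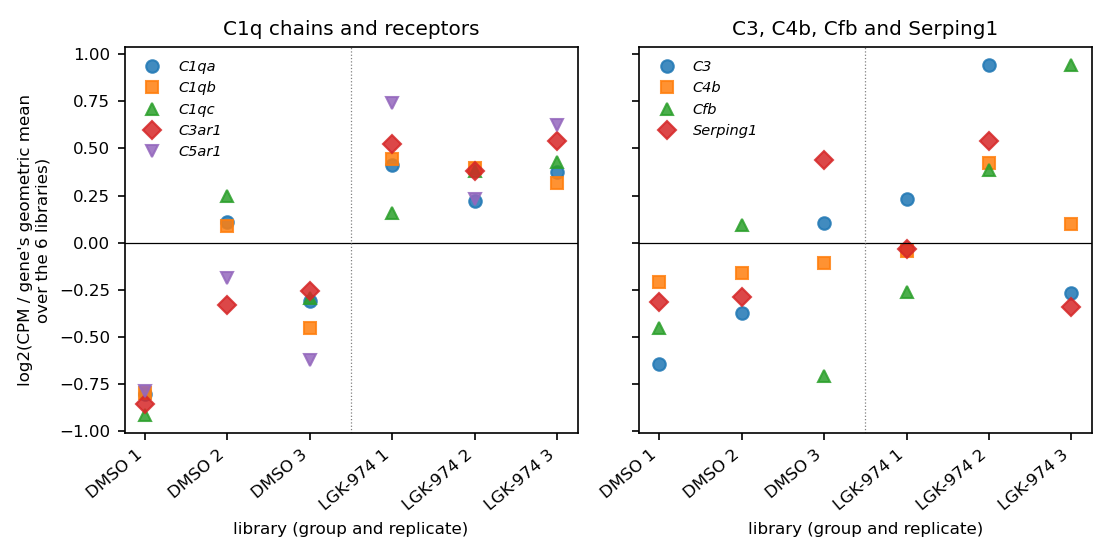
Level of each gene relative to its own geometric mean over the 6 libraries (y axis, log2 scale) in each library (x axis); the dotted line parts the groups. The C1q chains and receptors (left) run together, lowest in DMSO replicate 1 and above 0 in all LGK-974 libraries, whereas C3 and Serping1 (right) peak in LGK-974 replicate 2 and Cfb in LGK-974 replicate 3.

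The 9 genes thus followed more than 1 pattern across the libraries. C3ar1 and C5ar1 correlated at 0.941 with each other and at 0.808 to 0.928 with the C1q chains. C3 correlated at 0.853 with Serping1 and at 0.83 with C4b, while Serping1 correlated with the C1q chains at only 0.068 to 0.136. These are Pearson correlations of log2 CPM over 6 libraries and describe them only, since treatment, depth and background are shared between genes of a library. The TPM ratio of Serping1 to C3 was 1.52, 1.37 and 1.71 with LGK-974 and 2.07, 2.02 and 2.53 with DMSO. All LGK-974 libraries were lower in this ratio than all DMSO libraries. The ratio was formed after the levels were known and was not tested.

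**Figure D3:**
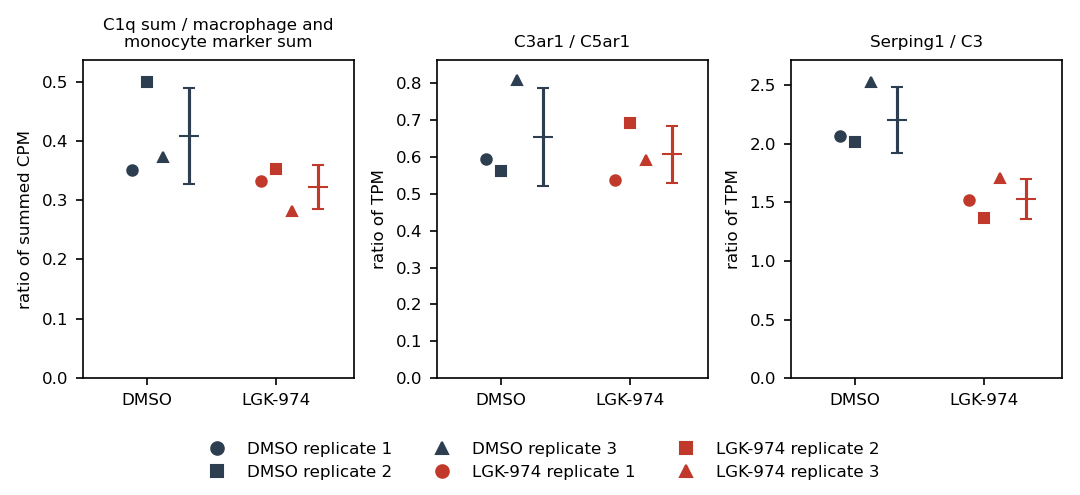
Ratios within each library: summed C1q CPM to summed macrophage and monocyte marker CPM, and TPM ratios of C3ar1 to C5ar1 and Serping1 to C3, all on axes that start at 0, with points for replicates and bars for mean and SD (n = 3). The first pair of ratios overlaps between groups, and the ratio of Serping1 to C3 averages 1.53 with LGK-974 against 2.21 with DMSO.

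Compared per transcript length, the order of the mean levels over the 6 libraries was C1qb (50.4 TPM), Serping1 (46.8), C1qa (45.1), C1qc (27.5), C3 (26.1), C5ar1 (16.6), C3ar1 (10.1), Cfb (2.81) and C4b (2.63). Neighbours in this order could not be separated at several places. C1qb exceeded Serping1 in 3 of 6 libraries, Serping1 exceeded C1qa in 3, C1qc exceeded C3 in 2 and Cfb exceeded C4b in 3. C1qa was above C1qc, C5ar1 above C3ar1 and C3ar1 above Cfb in 6 of 6 libraries, and C3 was above C5ar1 in 5 of 6. TPM levels varied widely between libraries, for example from 16.0 to 88.2 for C1qa. For C3ar1 they were 8.48 to 21.5 TPM with LGK-974 and 3.35 to 7.42 TPM with DMSO.

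Markers of other cell types moved with some of these genes. In bulk tissue, a change in the number of cells of a type and a change in RNA per cell cannot be told apart. Of 10 macrophage and monocyte markers, 10 had a positive log2 fold change and 6 an unadjusted p under 0.05, with a median of 0.94. The log2 fold changes of the 10 ran from 0.11 for Mertk to 1.38 for Fcgr1. The summed level of the 10 was 374 to 480 CPM with LGK-974 and 168 to 230 CPM with DMSO. Most of that sum came from Lyz2 and Cd68, at means of 180.3 and 83.77 CPM with LGK-974 and 73.25 and 40.09 CPM with DMSO. Ratios to the sum thus mainly follow these genes. Relative to that sum, C3ar1 averaged 0.128 with LGK-974 and 0.135 with DMSO and C5ar1 0.119 and 0.116, with overlapping groups. The summed C1q chains were at 0.333, 0.353 and 0.281 of it with LGK-974 and 0.351, 0.5 and 0.373 with DMSO, also overlapping. The share was lowest in LGK-974 replicate 3 and highest in DMSO replicate 2. For C1qa alone the ratio was 0.0974 to 0.119 with LGK-974 and 0.123 to 0.169 with DMSO and did not overlap, whereas C1qb and C1qc overlapped. C4b, at 0.0185 to 0.0296 with LGK-974 and 0.0321 to 0.0427 with DMSO, also did not overlap, and C3, Cfb and Serping1 did. The part of macrophage content in the levels of C1q and the receptors was not tested.

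Of 6 fibroblast markers, 6 had positive log2 fold changes with a median of 0.54, and 2, the collagen genes Col1a1 and Col1a2, had an unadjusted p under 0.05. The sum of the 6, most of which came from these collagen genes, was 1817 to 3173 CPM with LGK-974 and 1026 to 1509 CPM with DMSO. C3, which fibroblasts as well as the liver can make, averaged 0.0689 of that sum with LGK-974 and 0.0686 with DMSO, with overlapping groups. Cardiomyocyte markers, which define the labelled tissue, summed to 16300 to 28040 CPM in the 6 libraries with a median log2 fold change of −0.43. Of the 6 cardiomyocyte markers 5 were negative, and Actc1, the only marker among them with an unadjusted p under 0.05, was higher in every LGK-974 library at 0.86. Endothelial markers had a median of 0.03. Pan-leukocyte markers were positive for 4 of 4 genes, summing to 97.2 to 142.9 CPM with LGK-974 and 54.4 to 71.4 CPM with DMSO. Neutrophil markers split, with 2 of the 4 tested higher and 2 lower, and Ly6g was at 0 in 3 libraries. Cxcr2, the only marker among them with an unadjusted p under 0.05, was lower at −1.025. Its groups overlapped, and it was at 50.27 CPM in DMSO replicate 1. The neutrophil markers had a summed level of 31.2 to 43.2 CPM with LGK-974 and 39.6 to 77.3 CPM with DMSO. The DMSO maximum was replicate 1, and the other DMSO libraries were at 39.6 and 43.7 CPM. Sums for hepatocytes, the main source of plasma complement, were 0.0313 to 0.507 CPM with LGK-974 and 1.18 to 6.23 CPM with DMSO. They were highest in DMSO replicate 1, and albumin was at 0 in 2 LGK-974 libraries. Only 1 of the 6 hepatocyte markers passed the filter on low counts. The background level was not taken off these sums, so they give no difference in liver transcripts. T cell markers summed to 14.7 to 30.4 CPM and B cell markers to 1.77 to 7.01 CPM over the 6 libraries, both highest in DMSO replicate 1. The part of these cell types in the complement values was likewise not tested.

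The rest of the pathway was taken from a list of genes by role. Of 50 further complement genes on it, 49 had a row and 39 were tested, and 0 passed the adjusted threshold by edgeR. An unadjusted p under 0.05 was found for 5 that were higher and 2 that were lower, and DESeq2 called 3. The median log2 fold change was −0.22, beside −0.13 over all tested genes. All LGK-974 libraries lay above all DMSO libraries for 6 of them and below for 5. The shares over all tested genes were those given above, 6.26% higher and 7.18% lower by p, and 10.7% above and 7.27% below without overlap. Many of these genes had few counts, and among the 16 with a mean of at least 5 CPM the median was 0.09, with 4 higher and 0 lower at an unadjusted p under 0.05.

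Among the other receptors, Itgam and Itgb2 encode the chains of complement receptor 3, which binds cleaved C3 on target surfaces, and Itgax pairs with Itgb2 in complement receptor 4. Itgam was at 55.2 ± 18.4 CPM under LGK-974 and 28.5 ± 3.298 CPM in the controls (SD, n = 3), a log2 fold change of 0.95 (standard error 0.248). Itgb2 was at 26.2 ± 6.91 and 13.0 ± 3.88 CPM (SD, n = 3), with 1.01 (standard error 0.274), and Itgax at 6.15 ± 2.99 and 2.40 ± 0.505 CPM (SD, n = 3), with 1.36 (standard error 0.387). For all 3 integrin genes the groups did not overlap, LGK-974 replicate 3 was highest, and the edgeR adjusted p was 0.368. DESeq2's adjusted p was 0.0247 for Itgam, 0.0486 for Itgb2 and 0.0611 for Itgax. For Itgax the background level would make up 83.6% of the counts in DMSO replicate 1. C5ar2, the second C5a receptor next to C5ar1, was at 3.27 ± 0.888 and 3.54 ± 1.73 CPM (SD, n = 3) and had a log2 fold change of −0.12 (edgeR adjusted p = 0.902). The background level would make up 49% of the C5ar2 counts in DMSO replicate 1, its highest library at 5.50 CPM. C1qbp, a C1q binding protein of mitochondria, had the highest level per length in this group at 30.0 TPM and a log2 fold change of 0.14 (edgeR adjusted p = 0.656).

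Properdin, encoded by Cfp, stabilizes the alternative route enzyme and is made by myeloid cells. It was at 12.9 ± 3.50 CPM under LGK-974 and 7.04 ± 2.30 CPM in the controls (SD, n = 3), without overlap, a log2 fold change of 0.87 (edgeR adjusted p = 0.368). The proteases C1ra and C1s1 that C1q activates, by contrast, overlapped between groups with log2 fold changes of 0.23 and 0.30, and C1s1, the most abundant of the other classical genes per length at 10.9 TPM, had an edgeR adjusted p of 0.635. Of the lectin route 0 of 4 tested genes had an unadjusted p under 0.05, and its most abundant gene, the protease Masp1 (16.5 TPM), had a log2 fold change of −0.14 (edgeR adjusted p = 0.862).

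Regulators went in different directions. Clu, the secreted chaperone clusterin that also binds the terminal complex, was by far the most abundant complement gene at a mean of 430 TPM, and was at 791 ± 205 CPM under LGK-974 and 433 ± 59.9 CPM in the controls (SD, n = 3). It did not overlap between groups, with a log2 fold change of 0.87 (edgeR adjusted p = 0.368, DESeq2 adjusted p = 0.0122). C4bp, which inactivates C4b, was at 2.70, 2.24 and 2.21 CPM with LGK-974 and 13.7, 5.81 and 2.996 CPM with DMSO. This gave −1.66 as its log2 fold change (standard error 0.516, edgeR adjusted p = 0.368), and −0.86 without DMSO replicate 1. Of the 8 membrane regulators tested, 0 had an unadjusted p under 0.05 and 7 had a negative log2 fold change, as did 11964 of all 20094 tested genes. Among the 7 was Cr1l, the most abundant per length at 24.5 TPM, with −0.09 (edgeR adjusted p = 0.758).

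Terminal components, which build the membrane attack complex, were low. Only C7 exceeded a mean of 1 TPM, at 1.13 TPM, and it was at 2.497, 2.45 and 1.90 CPM with LGK-974 and 4.68, 2.96 and 4.08 CPM with DMSO. The log2 fold change of C7 was −0.78 (edgeR adjusted p = 0.368) and −0.61 without DMSO replicate 1 (edgeR adjusted p = 0.497), and the background level would make up 45.3% of its counts in that library. C8b, C8g and C9 did not pass the filter on low counts.

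**Figure D4:**
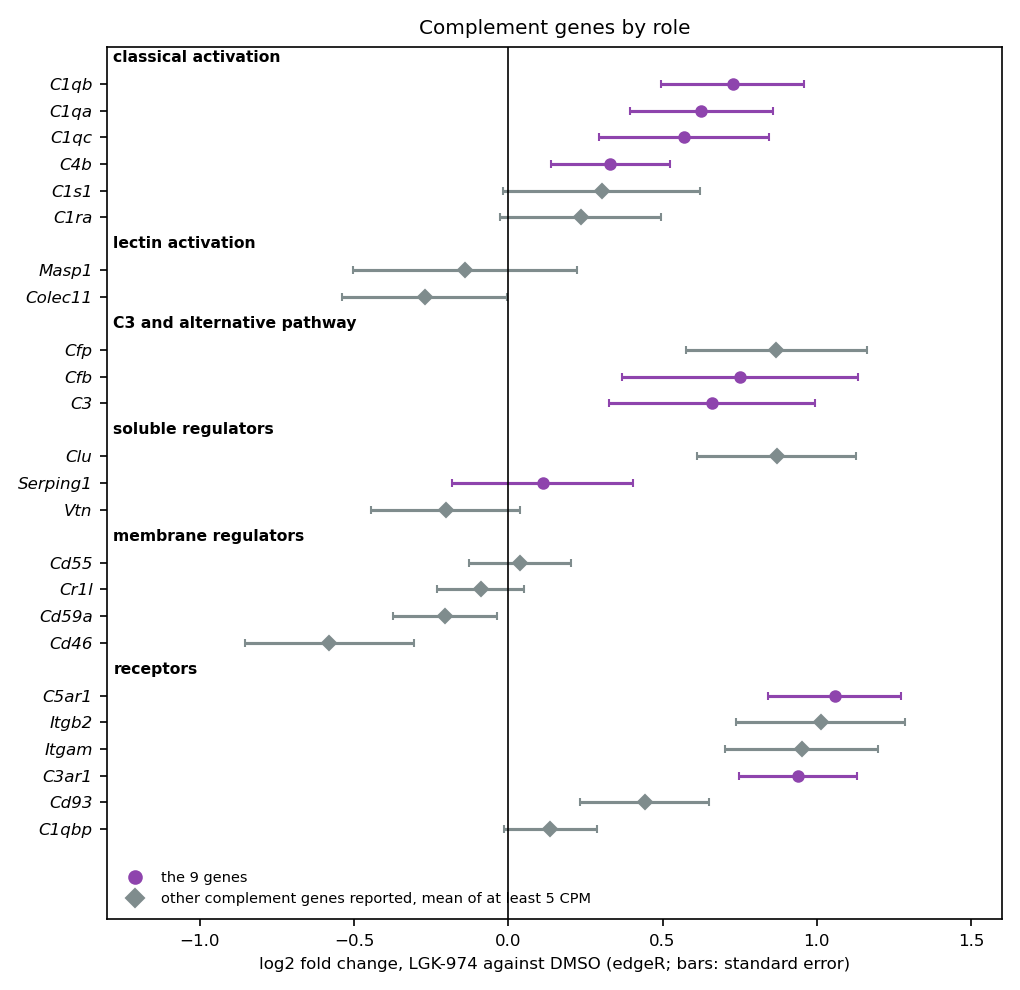
Log2 fold change (x axis, LGK-974 against DMSO, edgeR) with its standard error for the 9 genes (circles) and for the other complement genes reported here with a mean of at least 5 CPM (diamonds), grouped by role. The receptors C5ar1 (1.06), Itgb2 (1.01), Itgam (0.95) and C3ar1 (0.94) and the regulator Clu (0.87) lie farthest right, and the membrane regulators lie near or below 0.

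The genes whose pattern over the 6 libraries was most like that of each member were searched among 7951 protein-coding genes outside complement with a mean of at least 10 CPM. For the mean of the C1q chains these were Eif4e2 (Pearson r = 0.998), Crip1 (0.997) and Acvrl1 (0.996). For C3ar1 they were Sec24d, Lrrfip1 and Rbmxl1 (0.998 to 0.993), and for C5ar1 Fam111a, Vmp1 and Gk (0.998 to 0.996). Vmp1, which takes part in autophagy, was at 83.3, 68.1 and 84.0 CPM with LGK-974 and 43.3, 55.7 and 48.0 CPM with DMSO, the same order as C5ar1 but for the places of 1 pair of libraries. C3 was most like Pacsin3, Naalad2 and Hcfc2 (0.975 to 0.966), C4b like Metap1, Abhd17c and C2cd5 (0.983 to 0.959), Cfb like Mrpl33, Sh3kbp1 and Fuca2 (0.991 to 0.98), and Serping1 like Plekhh2, Ric1 and Sike1 (0.991 to 0.988). With 6 points and so many genes searched, correlations of this size describe the ranking only.

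Leaving out each library in turn kept a positive log2 fold change for 8 of the 9 genes. The range was 0.79 to 1.16 for C3ar1, 0.94 to 1.26 for C5ar1, 0.57 to 0.99 for C1qb and 0.44 to 0.86 for C1qa. It was wider relative to its size for C1qc (0.34 to 0.89), C3 (0.33 to 1.0) and Cfb (0.47 to 0.99), and 0.25 to 0.47 for C4b. Serping1 was the exception, from −0.12 to 0.52. No member passed an adjusted p of 0.05 by edgeR in any of these 6 fits, in which the lowest adjusted p for a member was 0.118. Over all tested genes, 2 of 18547 passed without DMSO replicate 1 and 0 in each of the other fits.

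**Figure D5:**
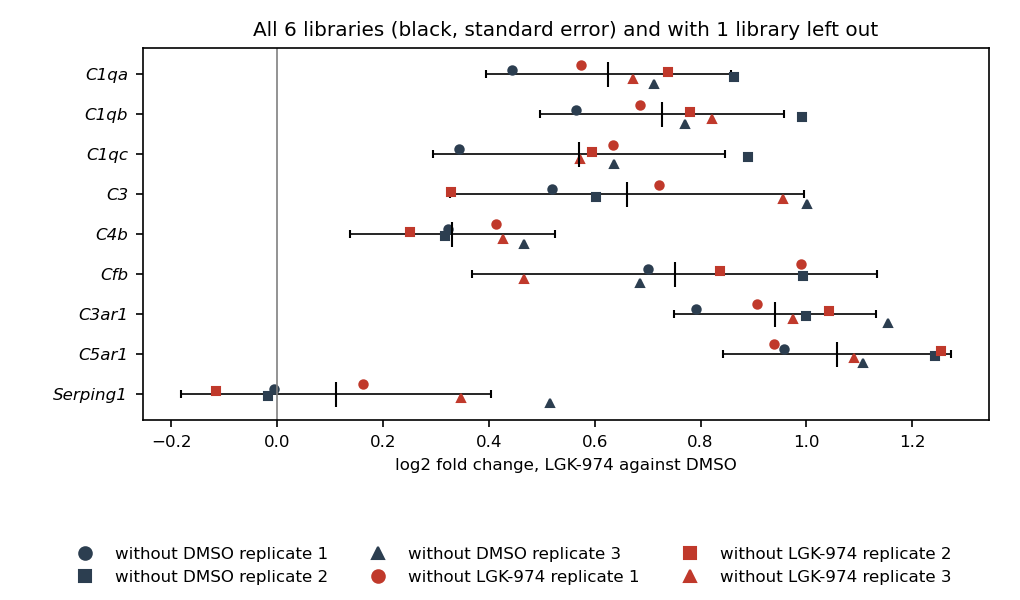
Log2 fold change of each member with all 6 libraries (black tick with its standard error) and with each library left out in turn (coloured marks, named in the legend). Marks for C3ar1 and C5ar1 stay right of 0.79, those of C3 reach from 0.33 to 1.0, and those of Serping1 lie on both sides of 0.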

How the data were processed

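The authors sequenced RNA of the infarct area after depletion of ribosomal RNA with RiboZero and preparation with the TrueSeq RNA Access kit, and quantified transcripts with Kallisto on an Ensembl index of GRCm38. The tables deposited by the authors give, for 118489 transcripts in each library, the estimated count, which need not be whole, and the TPM. Program versions and read trimming are not given in the sources used here. Groups and replicate numbers came from the sample titles.

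Transcripts were assigned to genes with GENCODE for GRCm38, which covered 98.59% of them, and their estimated counts were added up by gene and rounded. A gene was kept if 3 or more libraries had 10 or more counts of it. The quasi-likelihood test of edgeR 4.0.16 (R 4.3.3) was run with TMM factors and a design of treatment alone, and p-values were adjusted over all tested genes by the Benjamini-Hochberg method with a threshold of 0.05. CPM are on TMM-scaled library sizes. TPM values deposited by the authors were summed per gene for comparisons of levels between genes and for 1 alternative. DESeq2 1.42.0 and limma 3.58.1 (voom), other normalizations and filters, the replicate block, transcripts and leaving out each library were alternatives. The test script was tested on simulated data. Stretches of 31 bases were compared between transcripts to find shared sequence. Python 3.11.15 with pandas 2.3.3, NumPy 2.4.6 and matplotlib 3.10.9 was used for tables and plots.

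The background level was the median count per kb of 1780 smell, pheromone and bitter taste receptor genes. The 9 genes, the pathway and marker lists and the tests were chosen with earlier results of these data known. Besides the 9 genes, the text names complement genes with an unadjusted p under 0.05, those that may share counts with a member, the most abundant of each role and the 3 genes most like each pattern. Genes named outside this rule (C1ra, C5ar2, and the untested C8b, C8g and C9) were chosen after their values were seen, as were markers named singly. A complement gene that enters the list counts is not reported here. RefSeq promoters were at hand for 5 of the 9 genes (C1qb, C1qc, C3, C3ar1 and C5ar1). The other experiments of the study were not analysed here.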

Additional observations from a re-analysis of the deposited data

How the results depend on the processing

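Alternatives left 174 of 183 member values on the same side of the threshold and in the same direction. The main fit called 0 of 20094 genes and most alternatives called 0 as well. Staying on the same side was thus close to given for any gene. DESeq2 called 2 members (C3ar1, log2 fold change 0.96, adjusted p = 0.00537, and C5ar1, 1.08, adjusted p = 0.00414) and 3 other complement genes. Without a filter on low counts, edgeR called 2 members (C3ar1 1.06, adjusted p = 0.0224, and C5ar1 1.20, adjusted p = 0.00577) and 5 other complement genes, beside 1206 of all 34257 genes. In that fit 7 members had an unadjusted p under 0.05, as did 4790 of all genes, while the median of all genes shifted by −0.42. Of the other complement genes, 2 were lower at an unadjusted p under 0.05, 6 had all LGK-974 libraries above all DMSO libraries and 5 had them below. With library totals alone these counts were 1, 3 and 2 (the median of all genes shifted by 0.21), with counts less background 1 was lower (shift 0.11), and without the filter 3 lay below. Leaving out each library in turn gave 1 to 6 lower (1 without any LGK-974 library or DMSO replicate 1, 6 without DMSO replicate 2, 4 without DMSO replicate 3), 6 to 10 above (10 without DMSO replicate 3) and 3 to 9 below (3 without LGK-974 replicate 3, 9 without DMSO replicate 2). Genes with such a p in either direction also varied over the whole set. They were 821 of 19712 without LGK-974 replicate 3, 2530 of 18936 without DMSO replicate 2 and 4628 of 19948 without DMSO replicate 3. With library totals alone they were 2373 of 20094, and with counts less background 2421 of 17592. Shares of all genes by direction or without overlap are not given for these fits. Serping1 ran from −0.12 to 0.52 and was negative without LGK-974 replicate 2 (−0.12), DMSO replicate 1 (−0.01) or DMSO replicate 2 (−0.02). Single transcripts Cfb-204 (−0.68) and Cfb-206 (−1.81) had the opposite sign to the gene. The causes were not tested.

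The replicates are separate animals, so the replicate numbers were not used to pair the samples in the main test. Deviations of same-numbered libraries correlated at 0.475, −0.048 and 0.391, and those of differently numbered libraries at −0.518 to 0.1. Whether libraries of the same number share a step of handling was not tested. With the replicate block, 5 members had an unadjusted p under 0.05 instead of 4, and 3312 of all 20094 genes instead of 2699. C3ar1 was 0.96 and C5ar1 1.07, the lowest adjusted p of a member was 0.124, and 0 genes passed. Summing C4a with C4b was not run because C4a has no row among the genes analysed here. With 3 animals a group and edgeR calling 0 of 20094 genes (2699 at an unadjusted p under 0.05), Cfb and C4b had the fewest counts of the members, 91 to 681 a library. The common dispersion was 0.238 with all libraries and 0.116 without DMSO replicate 1.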
